A study of Mus musculus with 8 samples.

Results

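The enzymes described here are the 5 lysyl oxidases *Lox*, *Loxl1*, *Loxl2*, *Loxl3* and *Loxl4*, the 3 lysyl hydroxylases *Plod1*, *Plod2* and *Plod3*, and 2 alpha subunits of the prolyl 4-hydroxylase, *P4ha2* and *P4ha3*. They were chosen by gene family, as enzymes that hydroxylate or crosslink collagen, with earlier results of these data known. All 10 had a row among the 18533 gene symbols of the count table, and all 10 passed the filter on low counts, which 13535 symbols passed. The remaining alpha subunit, *P4ha1*, and the beta subunit, *P4hb*, are given beside them for comparison.

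The samples were mouse aortic smooth muscle cells (MASMCs), primary cells grown from the aortas of male mice aged 4 to 6 weeks after removal of adventitia and endothelium. There were 4 samples from WT mice and 4 from *Hint1*-/- mice, a knockout line acquired from another laboratory. Which part of *Hint1* is disrupted is not given in the sources used here. All 8 samples were treated with PDGF-BB, a growth factor that drives smooth muscle cells away from the contractile state, at 20 ng/mL for 24 h, so no untreated cells enter the comparison. The study's mice included C57BL/6J and its comparisons were between littermates, but the strain of these 2 groups is not given in the sources used here. The labels do not say whether the 4 samples of a genotype came from separate mice or cultures, so the p-values below measure the spread between these samples, which may be technical.

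Collagen chains are hydroxylated in the endoplasmic reticulum before they leave the cell. Prolyl 4-hydroxylase, a complex of alpha and beta subunits, makes the hydroxyproline that holds the triple helix together at body temperature, and lysyl hydroxylases make the hydroxylysine that carries sugars and forms the more stable crosslinks. Outside the cell, the copper-dependent lysyl oxidases convert lysine and hydroxylysine in collagen and elastin to reactive aldehydes, which condense into crosslinks between molecules. In the aortic wall these crosslinks give elastic and collagen fibers their strength, and *Lox* is known as a gene whose loss leads to aneurysm in mice and in people.

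The depth was 20778077 to 20888040 estimated counts a sample, and TMM factors lay between 0.993 and 1.01. *Hint1* itself had counts of 2272, 2336, 2364 and 2301 in WT samples 1 to 4 and of 713, 748, 778 and 715 in *Hint1*-/- samples 1 to 4, which is 32.1% of the WT level in CPM, the count scaled to the library size. Transcript counts of *Hint1* were therefore lower in the *Hint1*-/- samples but not absent, and no protein was measured in these files. Of all genes tested, 21.5% passed the test (edgeR, adjusted p under 0.05), with 11.2% higher and 10.2% lower in *Hint1*-/- MASMCs, and the counts of markers below stand against these shares. The smooth muscle marker list was measured in all samples, with a summed level of 1372 to 1488 CPM in WT and of 1136 to 1227 CPM in *Hint1*-/- MASMCs. Of its 7 markers, 1 rose (*Smtn*, means of 156 and 185 CPM) and 4 fell. Those that fell include *Myh11* (20.3 and 6.99 CPM) and *Cnn1* (15.1 and 6.93 CPM), which weigh little in the sum. In the fibroblast list 3 of 7 markers rose, 1 fell and 3 did not pass the test (summed level 2073 to 2118 CPM in WT and 2964 to 3152 CPM in *Hint1*-/-). Most of the rise of this sum was that of *Dcn*, with means of 1112 CPM in WT and 1975 CPM in *Hint1*-/- MASMCs. The marker that fell was *Dpt*, with means of 49.9 and 28.8 CPM. In the macrophage list 5 of 5 tested markers fell (1887 to 2186 and 1528 to 1623 CPM). In the glial list 4 of 5 markers fell (38.2 to 43.6 and 8.52 to 10.8 CPM), in the cardiac list 3 of 3 tested markers rose (1.29 to 2.16 and 4.64 to 8.34 CPM), and none of the 4 tested endothelial markers passed the test (3.81 to 6.26 and 3.94 to 6.28 CPM). Of the defining markers, cardiac *Myl7* had no counts in any WT sample, and *Acta2* was at 826 ± 44.6 CPM in WT and 578 ± 15.6 CPM in *Hint1*-/- MASMCs (SD, n = 4 each). Fibroblasts also make collagen and its enzymes. In bulk RNA a change in the number of cells of a type and a change in RNA per cell cannot be told apart, and the part of these lists in the results below was not tested.

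Of the 10 enzymes, 7 passed the test (edgeR's quasi-likelihood test, adjusted p under 0.05 over all genes tested), against 21.5% of all genes tested. This background covers genes of every level and was not matched to the enzymes, most of which were well expressed. The 5 that rose in *Hint1*-/- MASMCs were *Lox*, *Loxl2*, *Plod1*, *Plod2* and *P4ha2*, where the background of genes that rose was 11.2%, and the 2 that fell were *Loxl3* and *P4ha3*, where the background of genes that fell was 10.2%. *Loxl1*, *Loxl4* and *Plod3* did not pass the test. With the study's limit of a 1.5-fold change added, 1 of the 10 remained, *P4ha2*, against 2.83% of all genes. The CPM values of the genotypes did not overlap for 6 of the 10 (background 23.0%), of which 5 were higher and 1 was lower in *Hint1*-/- MASMCs. The median log2 fold change was 0.12 over the 10 enzymes and 0.000306 over all genes tested. The plot of each enzyme in every sample shows that most of the differences were modest, with means of the *Hint1*-/- samples between 67.7% and 153% of the WT mean.

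**Figure D1:**
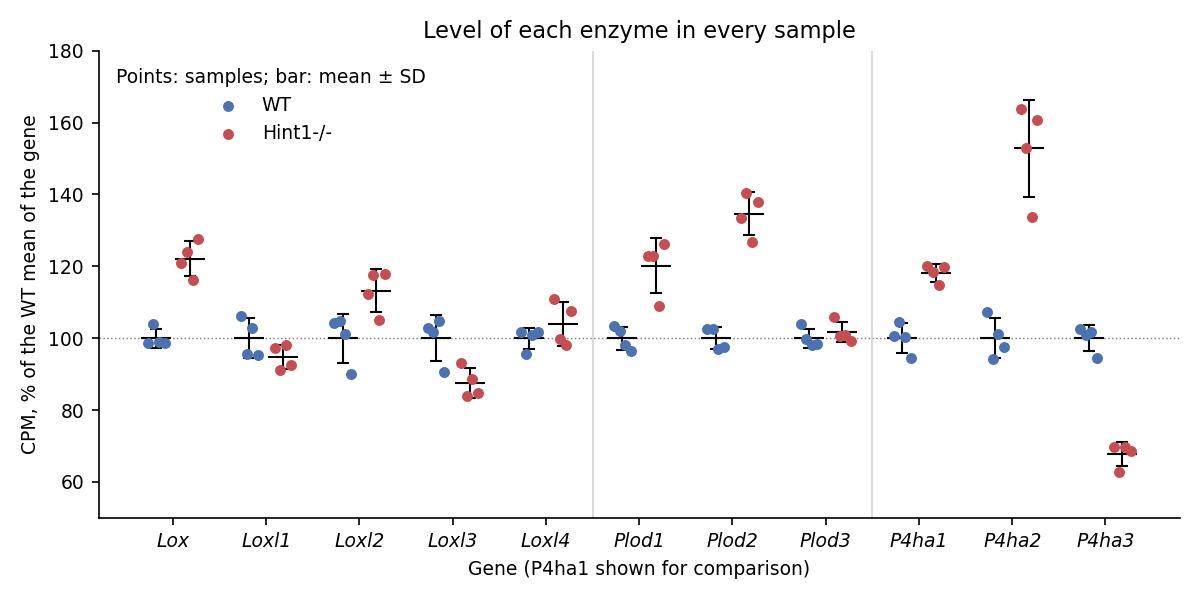
Level of each enzyme in every sample. The y axis gives CPM as a percentage of the gene's mean in WT, points are the 4 WT (blue) and 4 *Hint1*-/- (red) samples, and bars are the mean ± SD. *P4ha2* sits at a mean of 153% and *P4ha3* at 67.7% of WT, while the genotypes overlap for *Loxl1*, *Loxl3*, *Loxl4* and *Plod3*.

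Among the lysyl oxidases, *Lox* and *Loxl2* rose, *Loxl3* fell, and *Loxl1* and *Loxl4* did not pass the test. *Lox*, the founding member of the family and the main crosslinking enzyme of vascular collagen and elastin, is on chromosome 18 of the mm10 build, at 52516067 to 52529867. Its counts were 49369, 52333, 49606 and 49426 in WT samples 1 to 4 and 60174, 61524, 58006 and 63596 in *Hint1*-/- samples 1 to 4. All 4 *Hint1*-/- samples were above the WT range, with a level of 2400 ± 62.3 CPM in WT and of 2932 ± 116 CPM in *Hint1*-/- MASMCs (SD, n = 4 each). On the log2 scale the fold change was 0.29 (SE 0.035, edgeR adjusted p = 6.73e-06), or 122% of the WT level. *Lox* was the most highly expressed of these enzymes in each genotype, and WT sample 2 stood above the other 3 WT samples.

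*Loxl1*, which is needed for the renewal of elastic fibers, lies on chromosome 9 from 58287738 to 58313186. Its counts were 16152, 14611, 15693 and 14483 in WT and 14700, 13759, 14872 and 14016 in *Hint1*-/- samples. The genotypes overlapped, at 729 ± 40.2 and 691 ± 24.7 CPM (SD, n = 4 each), and the log2 fold change was −0.08 (SE 0.039, edgeR adjusted p = 0.187). *Loxl4* on chromosome 19 (42593982 to 42612813) also overlapped, with counts of 891, 844, 888 and 893 in WT and of 967, 868, 858 and 938 in *Hint1*-/- samples. On the log2 scale its fold change was 0.06 (SE 0.045, edgeR adjusted p = 0.408), and its level was the lowest of the family.

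*Loxl2* and *Loxl3*, whose proteins, like that of *Loxl4*, carry scavenger receptor domains before the oxidase domain, moved in opposite directions. *Loxl2*, known for crosslinking the collagen IV of basement membranes, lies on chromosome 14 from 69609068 to 69695834 and had counts of 3154, 3188, 3067 and 2728 in WT and of 3383, 3535, 3172 and 3550 in *Hint1*-/- samples. In CPM the highest WT sample (151.9) lay just below the lowest *Hint1*-/- sample (152.5), so the groups were barely separated. The log2 fold change was 0.18 (SE 0.047, edgeR adjusted p = 0.00929). *Loxl3* on chromosome 6 (83034173 to 83052562) had counts of 3428, 3407, 3498 and 3020 in WT and of 3078, 2770, 2947 and 2805 in *Hint1*-/- samples. WT sample 4 lay within the *Hint1*-/- range, and the log2 fold change was −0.19 (SE 0.045, edgeR adjusted p = 0.00426). Of the exon bases of *Loxl3*, 11.6% overlap *Htra2* on the opposite strand, and whether the counting used strand is not given in the sources used here, so reads of the shared bases cannot be assigned to either gene.

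The balance within the lysyl oxidase family was tested as the log2 ratio of the CPM of each pair, with an exact two-sided permutation test over the 70 assignments of 4 against 4 samples and adjustment over 16 pairs in all 3 families. The smallest p this design allows is 0.0286, which gave an adjusted p of 0.0457. All 10 pairs that passed sat at this smallest p. Their shared adjusted p depends on how many of the 16 pairs reached it, so they passed as a set and not each alone. The 16 include the pairs of *P4ha1*, which is given for comparison only, and the adjustment was not made without them. *Lox* gained on *Loxl1* by 0.36 (the difference of log2 ratios, *Hint1*-/- minus WT), on *Loxl3* by 0.48 and on *Loxl4* by 0.23, and *Loxl2* gained on *Loxl3* by 0.37, each with this exact permutation p. The remaining 6 pairs, all lysyl oxidases, did not pass. *Lox* and *Loxl2* differed by 0.11 in their change (adjusted p = 0.122, exact permutation test), and the genotypes overlapped for each of these 6 ratios.

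All 3 lysyl hydroxylases were well expressed, and *Plod2* and *Plod1* rose. *Plod2* encodes the lysyl hydroxylase that acts on the ends of the collagen chain, the telopeptides, where hydroxylysine directs crosslinks to the hard, pyridinoline-forming type. It lies on chromosome 9 from 92542223 to 92608428. Its counts were 12134, 12216, 11501 and 11553 in WT and 15669, 16470, 14943 and 16225 in *Hint1*-/- samples. The groups were well apart, at 567 ± 17.6 and 763 ± 34.0 CPM (SD, n = 4 each). With a log2 fold change of 0.43 (SE 0.037, edgeR adjusted p = 8.72e-08), or 135% of WT, it had the largest F statistic of the 10 enzymes. An antisense annotation overlaps 6.42% of its exon bases.

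*Plod1*, which hydroxylates lysines within the triple helix, lies on chromosome 4 from 147909753 to 147936767 and had counts of 3218, 3201, 3062 and 3011 in WT and of 3803, 3796, 3389 and 3912 in *Hint1*-/- samples. Every *Hint1*-/- sample was above every WT sample, with sample 3 the lowest of them, and the log2 fold change was 0.27 (SE 0.042, edgeR adjusted p = 0.000127). *Plod3*, which also transfers sugars to hydroxylysine, lies on chromosome 5 from 136987019 to 136996648 and had counts of 9871, 9541, 9354 and 9362 in WT and of 10016, 9504, 9577 and 9399 in *Hint1*-/- samples. The genotypes overlapped, with a log2 fold change of 0.02 (SE 0.033, edgeR adjusted p = 0.65). Of the *Plod3* exon bases, 11.9% overlap *Znhit1* on the opposite strand or the microRNA gene *Mir702*.

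The 3 lysyl hydroxylases changed by different amounts. *Plod2* gained on *Plod3* by 0.40 and *Plod1* gained on *Plod3* by 0.24, while *Plod1* lost 0.16 to *Plod2* (difference −0.16), on the log2 ratio scale (adjusted p = 0.0457 for each, exact permutation test). In counts, there were 3.76 to 3.84 *Plod2* counts per *Plod1* count in WT and 4.12 to 4.41 in *Hint1*-/- samples. The ranges of this ratio did not overlap.

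The prolyl 4-hydroxylase alpha subunits showed the 2 largest changes among the 10 enzymes, in opposite directions. *P4ha2*, the alpha subunit prominent in cartilage, bone and endothelium, lies on chromosome 11 from 54100095 to 54131665. Its counts were 2111, 1867, 1999 and 1921 in WT and 3210, 2988, 2628 and 3150 in *Hint1*-/- samples, so all 4 *Hint1*-/- samples were above the WT range and sample 3 was closest to it. The level rose from 94.5 ± 5.27 to 144 ± 12.8 CPM (SD, n = 4 each), a log2 fold change of 0.61 (SE 0.054, edgeR adjusted p = 1.27e-07). The change of 1.53-fold sits close to the 1.5-fold limit, a log2 of 0.58, and *P4ha2* no longer passed that limit without WT sample 2 or without *Hint1*-/- sample 1 (0.58 each), although it passed the test in every refit.

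*P4ha3*, the least expressed of the 10 enzymes per length, lies on chromosome 7 from 100285520 to 100319699. Its counts were 551, 546, 549 and 509 in WT and 372, 335, 374 and 367 in *Hint1*-/- samples. The groups were separate and close within themselves, at 25.8 ± 0.938 and 17.4 ± 0.851 CPM (SD, n = 4 each). The log2 fold change was −0.56 (SE 0.055, edgeR adjusted p = 4.82e-07), 67.7% of WT, which passed the 1.5-fold limit only without WT sample 4 (−0.59).

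*P4ha1*, the main alpha subunit of most tissues, lies on chromosome 10 from 59323296 to 59373304 and rose as well, from counts of 7163, 7484, 7160 and 6720 in WT to 8484, 8360, 8135 and 8491 in *Hint1*-/- samples (log2 fold change 0.24, SE 0.035, edgeR adjusted p = 4.62e-05). *P4hb*, the beta subunit, which is also the protein disulfide isomerase of the endoplasmic reticulum, rose from 1258 ± 21.2 to 1421 ± 36.8 CPM (SD, n = 4 each; log2 fold change 0.18, SE 0.032, edgeR adjusted p = 0.000451). All 3 pairs of alpha subunits differed in their change. *P4ha2* gained 1.17 on *P4ha3* on the log2 ratio scale, *P4ha1* gained 0.80 on *P4ha3*, and *P4ha1* against *P4ha2* changed by −0.37 (adjusted p = 0.0457 for each, exact permutation test). In counts, there were 0.249 to 0.295 *P4ha2* counts per *P4ha1* count in WT and 0.323 to 0.378 in *Hint1*-/- samples. Summed over the 3 alpha subunits there were 0.343 to 0.383 counts per *P4hb* count in WT and 0.392 to 0.405 in *Hint1*-/- samples, without overlap.

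The stretches before the transcription starts of the 3 alpha subunits are shown because these genes changed by different amounts and in different directions, and that of *Plod1* as an example from the lysyl hydroxylases that rose. *P4ha1*, *P4ha2* and *Plod2* are textbook targets of the hypoxia-inducible factors, whose core binding motif is ACGTG or GCGTG. The sequences come from RefSeq (GRCm38.p6), run 5′ to 3′ on the strand of the gene and end at the base before the RefSeq start. For *P4ha2* this start lies downstream of the first base of the GENCODE gene given above, so its stretch falls within the gene as GENCODE annotates it. They cover chr11:54100674-54100923 (+ strand) for *P4ha2*, chr10:59323046-59323295 (+ strand) for *P4ha1*, chr7:100285270-100285519 (+ strand) for *P4ha3* and chr4:147936777-147937026 (− strand) for *Plod1*. Capitals mark ACGTG or GCGTG, or their reverse complements CACGT and CACGC.
P4ha2: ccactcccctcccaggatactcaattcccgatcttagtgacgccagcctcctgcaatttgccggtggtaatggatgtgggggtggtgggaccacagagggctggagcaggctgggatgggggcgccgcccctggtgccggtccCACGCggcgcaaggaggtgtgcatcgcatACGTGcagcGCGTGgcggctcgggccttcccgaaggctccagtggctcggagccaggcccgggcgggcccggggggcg
P4ha1: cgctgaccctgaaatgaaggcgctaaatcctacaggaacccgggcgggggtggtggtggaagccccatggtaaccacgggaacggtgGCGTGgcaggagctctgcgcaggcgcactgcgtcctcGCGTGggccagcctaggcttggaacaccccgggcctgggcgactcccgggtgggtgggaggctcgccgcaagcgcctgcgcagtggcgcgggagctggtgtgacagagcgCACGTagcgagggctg
P4ha3: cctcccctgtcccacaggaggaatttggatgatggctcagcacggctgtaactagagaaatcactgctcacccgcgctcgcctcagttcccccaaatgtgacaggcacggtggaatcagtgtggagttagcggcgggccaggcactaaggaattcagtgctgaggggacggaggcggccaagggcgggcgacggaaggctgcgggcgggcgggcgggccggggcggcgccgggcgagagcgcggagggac
Plod1: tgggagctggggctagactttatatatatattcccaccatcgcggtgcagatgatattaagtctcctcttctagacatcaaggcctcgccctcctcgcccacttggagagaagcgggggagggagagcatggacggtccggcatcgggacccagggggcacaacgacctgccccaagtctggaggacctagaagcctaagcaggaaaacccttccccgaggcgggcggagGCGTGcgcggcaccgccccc
The motif was found 3 times before *P4ha2*, starting 107, 78 and 69 bases before the start, and 3 times before *P4ha1*, at 163, 126 and 16 bases. It was found once before *Plod1*, 20 bases from the start, and not in the 250 bases before *P4ha3*. *Plod3* and *Loxl4*, neither of which passed the test, held it as well. It was found 4 times before *Plod3* (152, 104, 90 and 54 bases before the start), the most of the 6 genes examined, and once before *Loxl4* (162 bases). Of the 13769 stretches of the same length that belong to tested genes, 54.2% hold the motif, so its presence is common, and a match is a description and not a site of binding. Neither CACGTG (7.99% of those stretches) nor TGACTCA (3.38%), searched on both strands, was found before any of these 6 genes, of the 11 looked up. CACGTG contains ACGTG and overlaps it wherever it occurs.

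Levels of different genes were compared as CPM per kb of exon. In WT the order was *Lox* at 502 ± 13.0, *Loxl1* at 221 ± 12.2, *Plod2* at 105 ± 3.26, *Plod3* at 101 ± 2.67, *Loxl3* at 34.7 ± 2.21, *Loxl2* at 26.9 ± 1.83, *Plod1* at 22.1 ± 0.712, *P4ha2* at 15.1 ± 0.845, *Loxl4* at 9.98 ± 0.292 and *P4ha3* at 8.22 ± 0.299 CPM per kb (SD, n = 4 each). The WT samples of neighbours in this order overlapped only for *Plod2* and *Plod3*. In *Hint1*-/- MASMCs, *Plod2* at 141 ± 6.30 CPM per kb stood clear of *Plod3* at 103 ± 2.93, while *Loxl2* and *Loxl3* overlapped, at 30.4 ± 1.61 and 30.4 ± 1.46, as did *Plod1* and *P4ha2*, at 26.5 ± 1.67 and 23.1 ± 2.04. The enzymes spanned the upper part of the transcriptome: *Lox* was above 99.6% of 13125 tested genes with a known length, *Plod2* above 97.5%, *P4ha2* above 79.8% and *P4ha3* above 55.3%. The plot on a log scale shows this range, from *Lox* at 614 ± 24.2 to *P4ha3* at 5.57 ± 0.271 CPM per kb in *Hint1*-/- MASMCs.

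**Figure D2:**
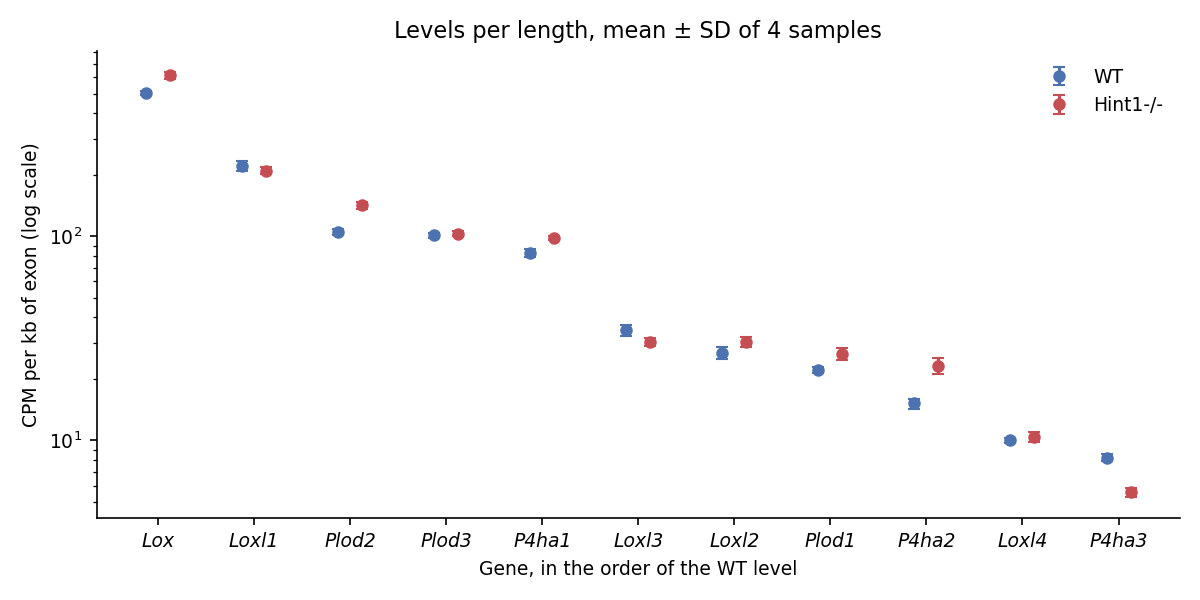
Levels per length. The y axis (log scale) gives CPM per kb of exon and the x axis the genes in the order of their WT level, with *P4ha1* for comparison; points are means and bars the SD of 4 samples. *Plod2* and *Plod3* coincide in WT at 105 and 101 CPM per kb and separate in *Hint1*-/- MASMCs at 141 and 103 CPM per kb.

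Summed per family, the lysyl oxidases reached 772 to 806 CPM per kb in WT and 869 to 918 in *Hint1*-/- samples, the lysyl hydroxylases 223 to 236 and 259 to 276, and the 3 alpha subunits 101 to 109 and 121 to 130. *Lox* made up 63.2 ± 1.51% of the lysyl oxidase sum in WT and 68.6 ± 1.33% in *Hint1*-/- samples, while *Loxl1* made up 27.8 ± 1.34% and 23.5 ± 1.25% (SD, n = 4 each). *Plod2* made up 46.1 ± 0.425% and 52.3 ± 1.16% of the lysyl hydroxylase sum, and the share of *Plod3* was 44.2 ± 0.470% and 37.9 ± 1.40%. Among the alpha subunits, *P4ha2* made up 14.3 ± 0.848% and 18.2 ± 1.05%, *P4ha3* 7.74 ± 0.102% and 4.40 ± 0.270%, and *P4ha1* 78.0 ± 0.931% and 77.4 ± 0.901%. These shares sum to a whole within each family and are given as descriptions.

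**Figure D3:**
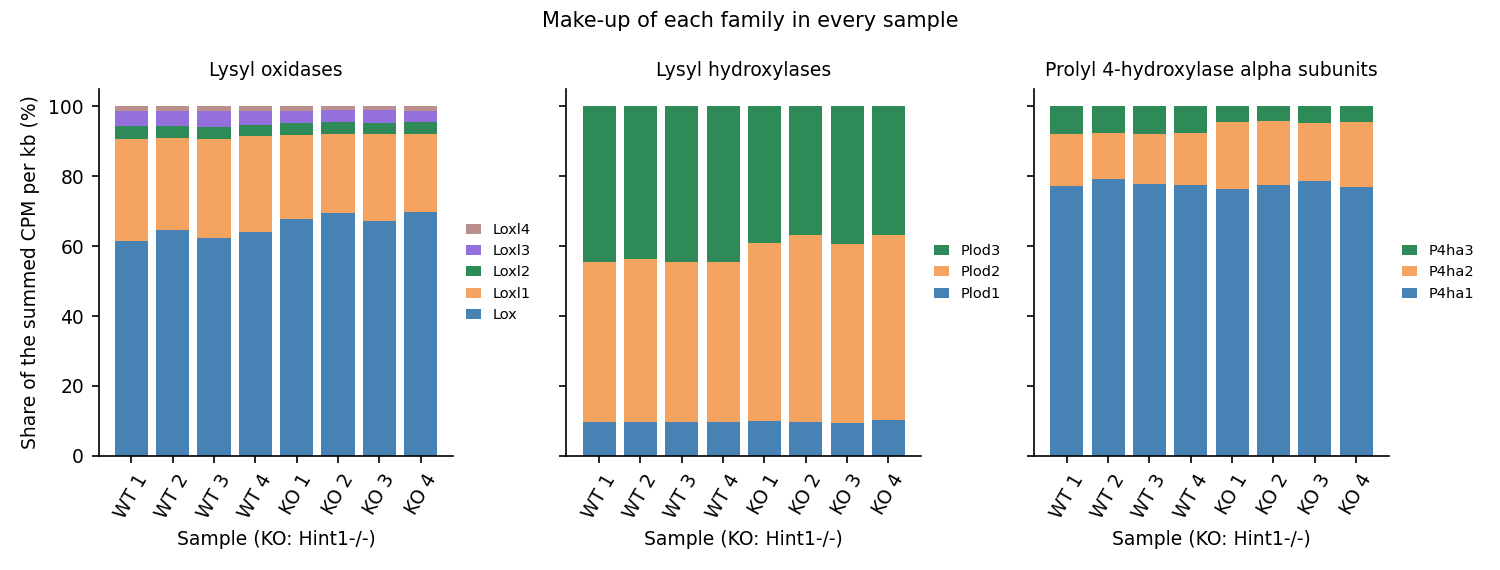
Make-up of each family in every sample. Stacked bars give each gene's share (%) of the family's summed CPM per kb in the 4 WT and 4 *Hint1*-/- (KO) samples. *Lox* takes a mean of 63.2% in WT and 68.6% in *Hint1*-/- samples, *Plod2* 46.1% and 52.3%, and *P4ha3* 7.74% and 4.40%.

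The main substrates of these enzymes moved in both directions. *Col1a1* and *Col1a2*, the chains of collagen I, fell. Counts of *Col1a1* were 71318 to 82758 in WT and 64493 to 72545 in *Hint1*-/- samples (log2 fold change −0.17, edgeR adjusted p = 0.0126, overlapping), and it did not pass the test in every refit. Those of *Col1a2* were 60760 to 68019 and 53321 to 58599 (−0.19, edgeR adjusted p = 0.0015). *Col3a1*, the chain of collagen III, rose from 24816 to 26051 counts in WT to 27746 to 32148 in *Hint1*-/- samples (log2 fold change 0.25, edgeR adjusted p = 0.000125). *Eln*, elastin, was low at 209 to 344 and 199 to 267 counts and did not pass the test (log2 fold change −0.22, SE 0.117, edgeR adjusted p = 0.196). Per count of *Col1a1*, *Col1a2* and *Col3a1* together, there were 0.279 to 0.315 *Lox* counts in WT and 0.380 to 0.405 in *Hint1*-/- samples, and 0.0684 to 0.0735 and 0.0990 to 0.108 *Plod2* counts. Neither ratio overlapped between the genotypes.

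Of 27 substrates, partners and enzymes of other crosslinks, all tested, 5 rose (background 11.2%), 11 fell (background 10.2%) and 11 did not pass the test, with a median log2 fold change of −0.04. The 4 that rose past the 1.5-fold limit (background 1.34%) were *Col2a1*, the collagen of cartilage (3.41, from 43 to 52 counts in WT to 488 to 525 in *Hint1*-/- samples), the small proteoglycan gene *Dcn*, which is also on the fibroblast list (0.83), and the minor fibrillar collagens *Col24a1* (0.70) and *Col11a1* (0.67). The 3 that fell past it (background 1.49%) were *Col27a1* (−1.09), *Postn*, whose product periostin binds collagen (−1.08), and *Fmod*, fibromodulin, a proteoglycan of collagen fibrils (−0.59). Copper reaches the lysyl oxidases through *Slc31a1*, *Atox1* and *Atp7a*, none of which passed the test, with log2 fold changes between −0.06 and 0.09, and these were also named after their values were seen.

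Changes among genes of the other steps of collagen maturation were small. Of 30 genes listed for prolyl 3-hydroxylation, folding, sugar transfer, export and cleavage of procollagen, 28 were tested, 10 rose (background 11.2%), 3 fell (background 10.2%, about the share of the list) and 15 did not pass the test. None passed the 1.5-fold limit, and the median log2 fold change was 0.07. *P4ha1* and *P4hb* are on this list. The largest of the changes that passed the test were those of *Tll1*, a protease that cleaves procollagen and activates pro-lysyl oxidase (0.45, SE 0.038), *Adamts14*, which removes the amino-terminal propeptide (−0.32, SE 0.043), and *Pcolce2*, an enhancer of procollagen cleavage (0.30, SE 0.042). *Bmp1*, the main protease for the cleavages named for *Tll1*, was at 376 ± 8.58 CPM in WT and 387 ± 9.49 CPM in *Hint1*-/- MASMCs (SD, n = 4 each). Its log2 fold change was 0.04 (edgeR adjusted p = 0.42), and it was named after its values were seen.

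Each of these enzyme families includes known targets of hypoxia-inducible factors in other cells. Which of the 10 enzymes are targets in MASMCs was not tested. A list of 19 genes held oxygen-responsive genes, parts of the pathway of these factors and an ascorbate transporter. Of the 19, 18 were tested, 12 rose (background 11.2%), 1 fell (background 10.2%) and 5 did not pass the test. The median log2 fold change was 0.38. The 5 that rose past the 1.5-fold limit (background 1.34%) were *Bnip3*, a mitophagy receptor (1.01, SE 0.055), the prolyl hydroxylases *Egln3* (0.87, SE 0.078) and *Egln1* (0.71, SE 0.044), which mark the factors for destruction, *Pdk1*, a kinase that holds pyruvate back from the mitochondria (0.66, SE 0.056), and *Epas1*, the gene of HIF-2 alpha (0.66, SE 0.070). *Hif1a* itself rose by 0.43, and the glycolytic genes *Ldha* and *Pgk1* rose by 0.42 and 0.29. *Vegfa* rose by 0.22 and *Slc2a1*, a glucose transporter gene, by 0.17. *Ndrg1* and *Ankrd37* did not pass the test (log2 fold changes −0.000934 and 0.53), and *Slc23a2*, a transporter of the ascorbate that these hydroxylases need, fell (−0.15, overlapping). *Hif1a* and the genes given after it were named after their values were seen. No oxygen level or protein was measured, and the relation of these genes to the enzymes was not tested.

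**Figure D4:**
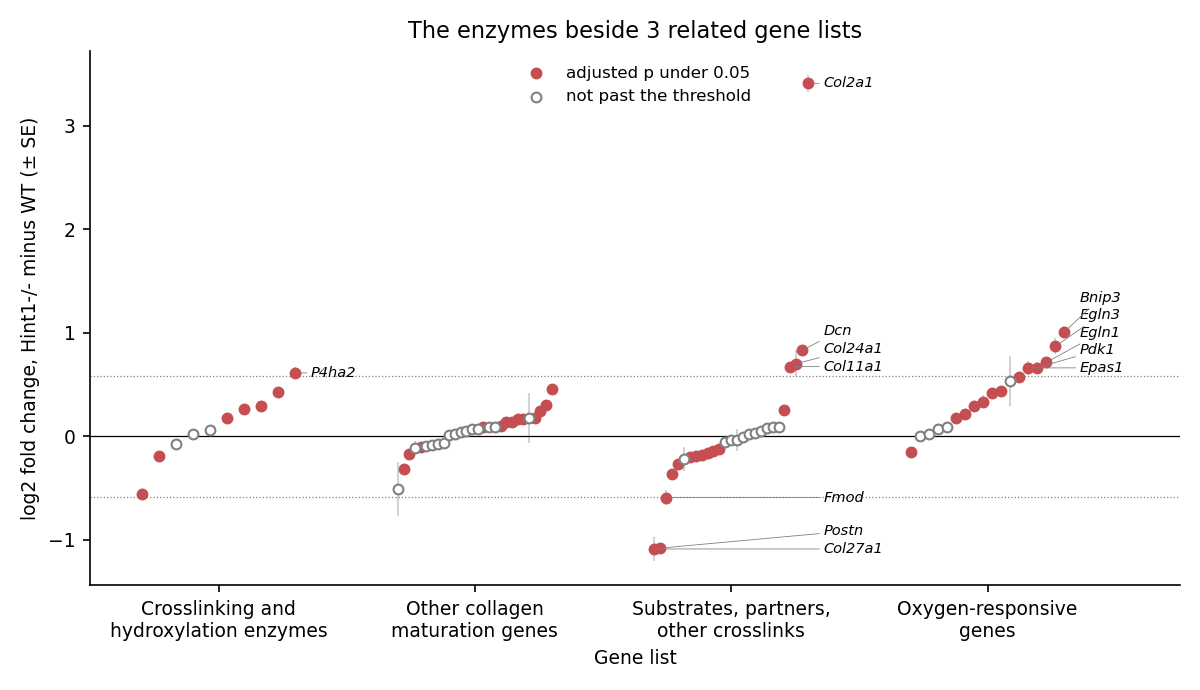
The enzymes beside 3 related gene lists. The y axis gives the log2 fold change (*Hint1*-/- minus WT) ± SE for each tested gene, filled where the adjusted p was under 0.05, and dotted lines mark the 1.5-fold limit. *P4ha2* is the only 1 of the 10 enzymes beyond the limit, against 7 of 27 substrates and partners, 5 of 18 oxygen-responsive and hypoxia-pathway genes and none of 28 maturation genes.

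*P4ha2* shares chromosome 11 with the targeted gene, at a distance of 735 kb from *Hint1*. Within 1 Mb of *Hint1*, 25 genes had a row and 22 were tested. Of these, 6 rose (background 11.2%), 2 fell (background 10.2%) and 14 did not pass the test, so that 36.4% were called against 21.5% of all genes. The called genes include *P4ha2* itself, for which this stretch was examined, and their count ranged from 6 to 9 over 16 refits. *P4ha2* and *Slc36a2*, an amino acid transporter, passed the 1.5-fold limit (background 2.83%), the latter from 4 to 6 counts in WT to 17 to 27 in *Hint1*-/- samples (log2 fold change 2.12, SE 0.29, edgeR adjusted p = 2.88e-05). *Pdlim4*, the measured gene next to *P4ha2* on the side away from *Hint1* and named after its values were seen, fell (log2 fold change −0.44, SE 0.072, edgeR adjusted p = 0.000194). For *P4ha2* and the other genes of this stretch, the *Hint1* genotype and the passing on of the surrounding chromosome with the disrupted gene cannot be told apart. The plot by distance shows genes that rose and genes that fell on each side of *Hint1*.

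**Figure D5:**
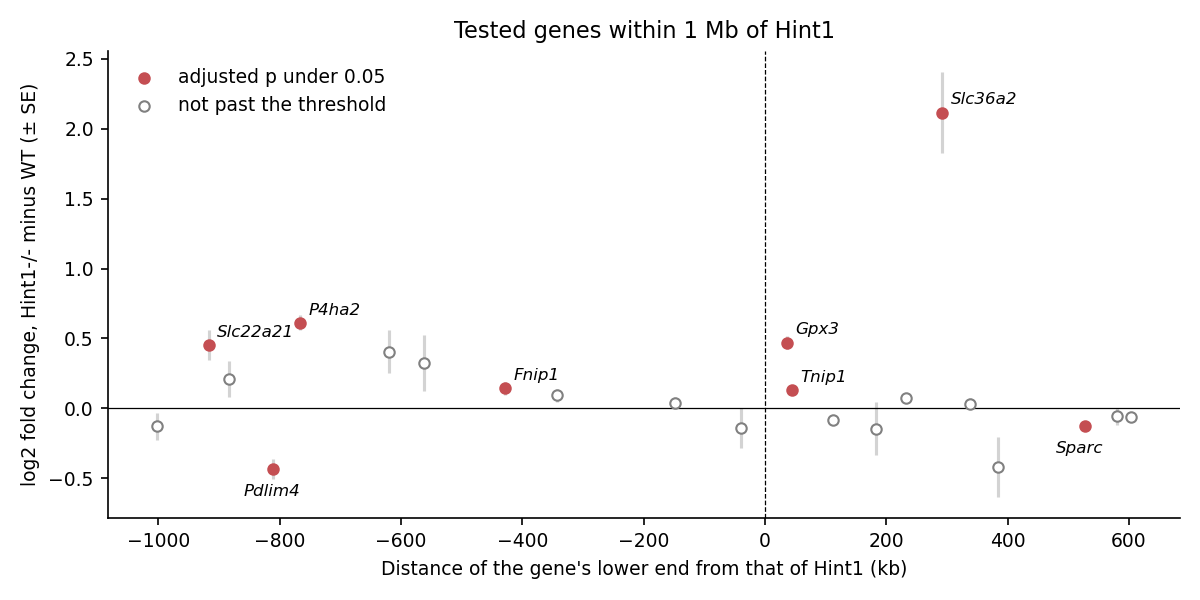
Tested genes within 1 Mb of *Hint1*. The x axis gives the distance (kb) of each gene's lower end from that of *Hint1*, and the y axis the log2 fold change (*Hint1*-/- minus WT) ± SE, filled where the adjusted p was under 0.05. *P4ha2* at 0.61 and *Slc36a2* at 2.12 lie on opposite sides of *Hint1*, and *Pdlim4* beside *P4ha2* lies at −0.44.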

How the data were processed

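RNA from WT and *Hint1*-/- MASMCs (n = 4 each) was sequenced on a BGISEQ-500. The authors mapped reads to mm10, with HISAT2 per the study's methods, while the submitters' processing notes list Bowtie2, RSEM 1.3.1 and DESeq2 1.4.5. The authors deposited estimated counts per gene symbol from the mapped reads, not normalized, and 67.3% to 67.8% of a sample's values were whole. The gene annotation behind the counts is not given in the sources used here, and no molecular identifiers are described.

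Samples were grouped by the genotype in their labels. Counts were rounded to whole numbers, filtered on low values (filterByExpr) and compared in edgeR 4.0.16 (R 4.3.3) by glmQLFit and glmQLFTest after TMM scaling, two-sided, with Benjamini-Hochberg adjustment over 13535 genes. The SE is the log2 fold change divided by the square root of F. Ratios within families were tested in Python 3.11.15 with scipy 1.17.1. Positions and exon lengths are from GENCODE M21 and promoters from RefSeq. The edgeR, DESeq2 and limma-voom tests were run on simulated data as a check, and the permutation test was not part of it.

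The members, lists and the genes given by name were chosen with earlier results of these data known. The names given are the 10 enzymes, *P4ha1*, *P4hb*, *Hint1*, *Col1a1*, *Col1a2*, *Col3a1*, *Eln*, list genes past both thresholds or else the 3 largest changes, genes past both thresholds near *Hint1*, and the 3 genes most like the enzyme with the largest F statistic.

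Alternatives were DESeq2 1.42.0, limma-voom (limma 3.58.1), DESeq2's size factors, upper-quartile normalization, totals that leave out the top 20 genes, a fit of all genes unfiltered, a minimum of 10 counts per sample, blocking on replicate number, and each sample left out in turn.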

Additional observations from a re-analysis of the deposited data

Results flagged for a closer look

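In each genotype, the 4 CPM values of 36 genes chosen by the rule for names were examined for a sample far from the other 3 by Dixon's criterion at the usual critical value, which compares the gap to the nearest sample with the whole range. Of 72 groups of values, 5 were past it, where chance gives about 1 in 20, or 3.6. Among the enzymes, *Lox* in WT (0.968) had 52333 counts in sample 2 and 49369 to 49606 in the others, *Loxl4* in WT (0.876) had 844 counts in sample 2 and 888 to 893 in the others, and *P4ha3* in *Hint1*-/- MASMCs (0.837) had 335 counts in sample 2 and 367 to 374 in the others. Outside the enzymes, *Col27a1* in *Hint1*-/- MASMCs (0.922) had 58 counts in sample 2 and 68 to 69 in the others, and *Epas1* in WT (0.852) had 294 counts in sample 1 and 255 to 261 in the others. Without WT sample 2 the log2 fold change of *Lox* was 0.31, and without *Hint1*-/- sample 2 that of *P4ha3* was −0.53, each past the test.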

How the results depend on the processing

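Over 16 refits, 7 of the 10 enzymes passed the test each time, and no log2 fold change of an enzyme changed its direction or its side of the threshold. With the 1.5-fold limit the count of 1 enzyme ranged from 0 to 2 when a sample was left out: it was 0 without WT sample 2 and without *Hint1*-/- sample 1, where *P4ha2* stood at 0.58, and 2 without WT sample 4, where *P4ha3* stood at −0.59. The count over all genes ranged from 2258 to 3082, and past the fold limit from 310 to 442. In the lists, the count of genes that passed the test ranged from 14 to 17 for substrates and partners and from 9 to 13 for maturation genes. For the oxygen-responsive and hypoxia-pathway genes it ranged from 12 to 13. The 10 pairs within families that passed also passed on raw counts, while leaving out a sample gave values only, since 3 samples against 4 cannot reach an exact p that passes after adjustment.

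With the replicate number as a block, 7 enzymes and 3082 genes passed the test and *P4ha2* was at 0.61. The deviations of samples with the same number correlated at 0.183, 0.136, −0.0492 and 0.0630, so the numbers were not taken to pair the samples, and WT samples 1, 2 and 4 correlated best with their own number, as a hint from the data. The lowest count of an enzyme in any sample was 335, while *Slc36a2* rests on at most 27 counts.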

Other observations

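*Plod2* had the largest F statistic of the 10 enzymes, and the genes whose log2 CPM followed it most closely over the 8 samples were *Ndc80*, a kinetochore gene (Pearson's r 0.998), *Plscr1*, an interferon-responsive scramblase gene (0.996), and *Ackr3*, a chemokine receptor gene (0.996). Their log2 fold changes were 0.19, 0.32 and 0.43. The 8 samples share the difference between genotypes, and 592 genes had an r above 0.9 with *Plod2*, so such values are common here.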
